A study of Homo sapiens with 42 samples.

Results

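The comparison concerned HEK293T cells that had received a MAF1 plasmid 48 h earlier, set against cells that had received an eGFP plasmid for the same time. It took 6 of the 42 libraries of a series on inhibition of RNA polymerase III (Pol III), 3 labelled as MAF1 overexpression and 3 as eGFP overexpression, and the labels alone placed them. HEK293T is a human embryonic kidney line that carries the SV40 large T antigen, so both groups share that background and the same plasmid transfection reagent. The eGFP group had no untransfected counterpart, and the sources used here do not give the promoter or any tag of the plasmids. Polyadenylated RNA was sequenced, with 37771506 to 44347734 estimated reads per library. MAF1 protein and its phosphorylation were not measured, and RNA carrying the eGFP sequence was not analysed here.

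MAF1 is a conserved repressor of Pol III, the enzyme that makes tRNAs, 5S rRNA and other short noncoding RNAs. It binds the polymerase and its initiation factor TFIIIB when nutrients or stress signals call for restraint, and the kinase mTORC1 holds it inactive by phosphorylation. Pol III products carry no poly(A) tail, and polyadenylated RNA was sequenced. The 25 Pol III transcripts listed for the comparison were represented by 0 genes in the table, and why they were absent was not tested. The libraries bear on the mRNA side alone.

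Cell identity matched the label in all 6 libraries. Summed over 15 HEK293T markers, among them the kidney and embryonic regulators PAX2 and SALL1 and the RNA-binding protein IGF2BP1, the level was 1530 to 1590 CPM (reads of a gene scaled to a common library size), and no marker was at 0 in any library. Of the 16 monocyte markers, which mark the other cell line of the series, MPO was at 0 in all 6 libraries, PTPRC reached 0.0513 CPM, and the whole list summed to 5.34 to 7.32 CPM. Mitochondrial genes took 6.98% to 7.96% of reads and retained-intron transcripts 4.9% to 5.21%, with overlapping ranges in the groups. Transcripts annotated for nonsense-mediated decay took 2.61% to 2.64% with eGFP and 2.54% to 2.59% with MAF1, without overlap.

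MAF1 itself was strongly higher in the libraries labelled for it. It was at 42.6, 40.4 and 41.0 CPM with eGFP and at 2900, 3040 and 3330 CPM with MAF1, so the groups lie far apart. The mean was 41.3 ± 1.16 CPM (SD, n = 3) against 3090 ± 217 CPM (SD, n = 3), a 74.7-fold rise with a 95% interval of 67.7 to 82.5-fold (log2 6.22, SE 0.0625, edgeR adjusted p = 2.91e-10, higher in 3 of 3 libraries). On the per-length TPM scale MAF1 stood at 41.4 to 43.9 with eGFP and at 3640 to 4080 with MAF1. That moved it from rank 3193 to 3369 among 19465 protein-coding genes to rank 17 to 19. MAF1 took 0.289% to 0.332% of the reads in the overexpressing cells. These are bulk libraries, so the share of cells that took up the plasmid and the amount of MAF1 RNA per cell cannot be told apart.

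Nearly all of the added MAF1 reads were assigned to 1 annotated transcript, MAF1-204. Its estimated counts were 33.8, 28.7 and 105.6 with eGFP and 114709.2, 110244.5 and 132182.6 with MAF1, and its share of all MAF1 reads went from 3.76% ± 3.18 (SD, n = 3) to 98.1% ± 0.152 (SD, n = 3). The endogenous pattern in eGFP cells was led by MAF1-201, at 36.5, 33.3 and 31.5 CPM and 81.3% ± 4.58 of MAF1 reads (SD, n = 3). With MAF1 it was at 51.5, 49.2 and 48.7 CPM, above all eGFP libraries, and was called by DESeq2 (adjusted p = 2.06e-12) but not by edgeR (log2 0.56, SE 0.0623, edgeR adjusted p = 0.327). In the GENCODE annotation MAF1-204 and MAF1-201 have 8 exons each and share all 7 coding exons, 768 coding bases in total, and differ only outside them, with 1098 and 1677 bases in all. Reads within the shared coding exons therefore cannot be placed on one of the pair by sequence.

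The minor MAF1 transcripts differed between the groups in both directions. edgeR called none of them, and DESeq2 called MAF1-202 and MAF1-205 but not MAF1-206. MAF1-205 was at 4.6, 5.73 and 5.81 CPM with eGFP and at 2.25, 2.69 and 2.8 CPM with MAF1 (log2 -1.06, SE 0.162, edgeR adjusted p = 0.436, DESeq2 adjusted p = 1.4e-05). MAF1-202 had 0 reads in every eGFP library and 181.9, 125.5 and 152.1 with MAF1 (edgeR adjusted p = 0.119, DESeq2 adjusted p = 8.92e-12). These are divisions of reads among overlapping models by estimation, and at the scale of 98.1% on one model the remaining shares are small: 1.61% ± 0.142 for MAF1-201 and 0.0832% ± 0.00552 for MAF1-205 (SD, n = 3 each).

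**Figure D1:**
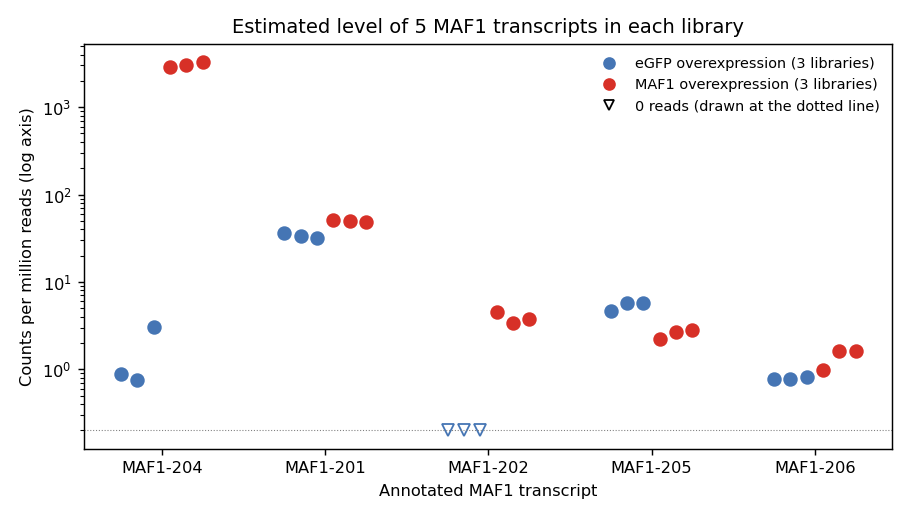
CPM on a log axis for the 5 MAF1 transcripts that reached 1 CPM in a library, 1 point per library, blue for eGFP and red for MAF1, with open triangles at the dotted line for 0 reads. MAF1-204 moves from 0.752 to 3.08 CPM up to 2870 to 3250 CPM. MAF1-201 lies between 31.5 and 36.5 CPM with eGFP and between 48.7 and 51.5 CPM with MAF1.

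Against that rise in MAF1, the rest of the transcriptome differed little. Of 15543 genes tested, 6 (0.0386%) were called at an edgeR adjusted p under 0.05, 5 higher (0.0322%) and 1 lower (0.00643%) with MAF1. Beside MAF1 these were PSAT1, RRN3, GARIN1A, ENSG00000284976 and DECR2, and 1493 genes (9.61%) had an unadjusted p under 0.05, 4.64% of all genes higher and 4.97% lower. DESeq2 called 30 genes, 18 higher and 12 lower, including all 6. The count was 2 without MAF1 replicate 2, when only MAF1 and RRN3 were left of the 6, and 3 without MAF1 replicate 3, when MAF1, PSAT1 and RRN3 were left. The median log2 fold change over all genes tested was 0.003. The labels do not state whether replicates are separate cultures. If they are not, every p-value here reflects technical spread alone.

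**Figure D2:**
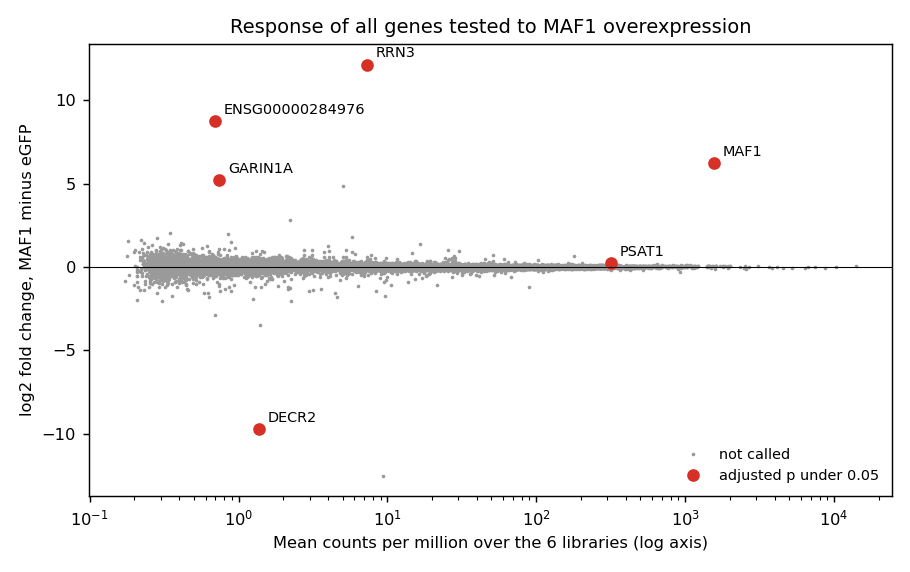
log2 fold change of each of the 15543 genes tested (MAF1 minus eGFP) against its mean CPM over the 6 libraries on a log axis, with the 6 called genes as large red points. MAF1 stands at 6.22, RRN3 at 12.13, DECR2 at -9.71 and PSAT1 at 0.24; the fitted values of RRN3 and DECR2, which have a group at 0 reads, depend on the prior count.

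Of the other called genes, 4 had a group at or near 0 reads, and each of these also moves between 0 and at least 1 CPM among replicates elsewhere in the series. RRN3, the Pol I initiation factor TIF-IA (chromosome 16, 15060022 to 15094317, minus strand), had 0 reads in each eGFP library and 14.4, 15.3 and 14.1 CPM with MAF1 (566 to 580 reads). Taking 3 reads in each library as the floor, that is at least 182-fold higher by counting error alone (edgeR adjusted p = 4.11e-06, higher in 3 of 3 libraries). Over all 30 HEK293T libraries its edgeR adjusted p was 0.399. RRN3 had 0 reads in 19 of the 42 libraries, and in 6 of the 14 groups it was at 0 in 1 replicate and at 1 CPM or more in another. With the scramble ASO, for example, it ranged from 0 to 32.4 CPM. A single annotated RRN3 transcript was in the table, and the near-identical pseudogene RRN3P1 held 4.59 to 5.13 CPM with eGFP and 4.24 to 4.92 CPM with MAF1. How the authors' quantification divided reads between these copies was not tested.

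DECR2, a peroxisomal reductase of unsaturated fatty acid breakdown, was at 2.64, 1.73 and 3.86 CPM with eGFP and had 0 reads in each MAF1 library, at least 35.8-fold lower against the same floor (edgeR adjusted p = 0.0241). It was mixed in this way in 10 of the 14 groups and at 0 in 20 of 42 libraries. GARIN1A, which encodes a Golgi-associated RAB2 interactor, was at 0, 0.0516 and 0.0576 CPM with eGFP (0 to 2 reads) and at 1.27, 1.49 and 1.58 CPM with MAF1 (log2 5.22, SE 0.436, edgeR adjusted p = 0.00613). Its value was 3.43 with an offset for transcript length (edgeR adjusted p = 0.489). The unnamed protein-coding gene ENSG00000284976 had 0 reads with eGFP and 1.07, 1.3 and 1.78 CPM with MAF1, at least 17.2-fold higher (edgeR adjusted p = 0.0237). Neither was steady elsewhere: 5 groups were mixed for GARIN1A and 4 for ENSG00000284976. None of the 4 was called over all 30 HEK293T libraries. Leaving out MAF1 replicate 2 ended the calls of DECR2 (adjusted p = 0.129), GARIN1A (0.0898) and ENSG00000284976 (0.179) in edgeR. Leaving out MAF1 replicate 3 gave 0.0691, 0.0671 and 0.0691, and leaving out eGFP replicate 1 gave 0.075 for DECR2. MAF1 and PSAT1 had reads in all 42 libraries and were mixed in 0 groups.

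**Figure D3:**
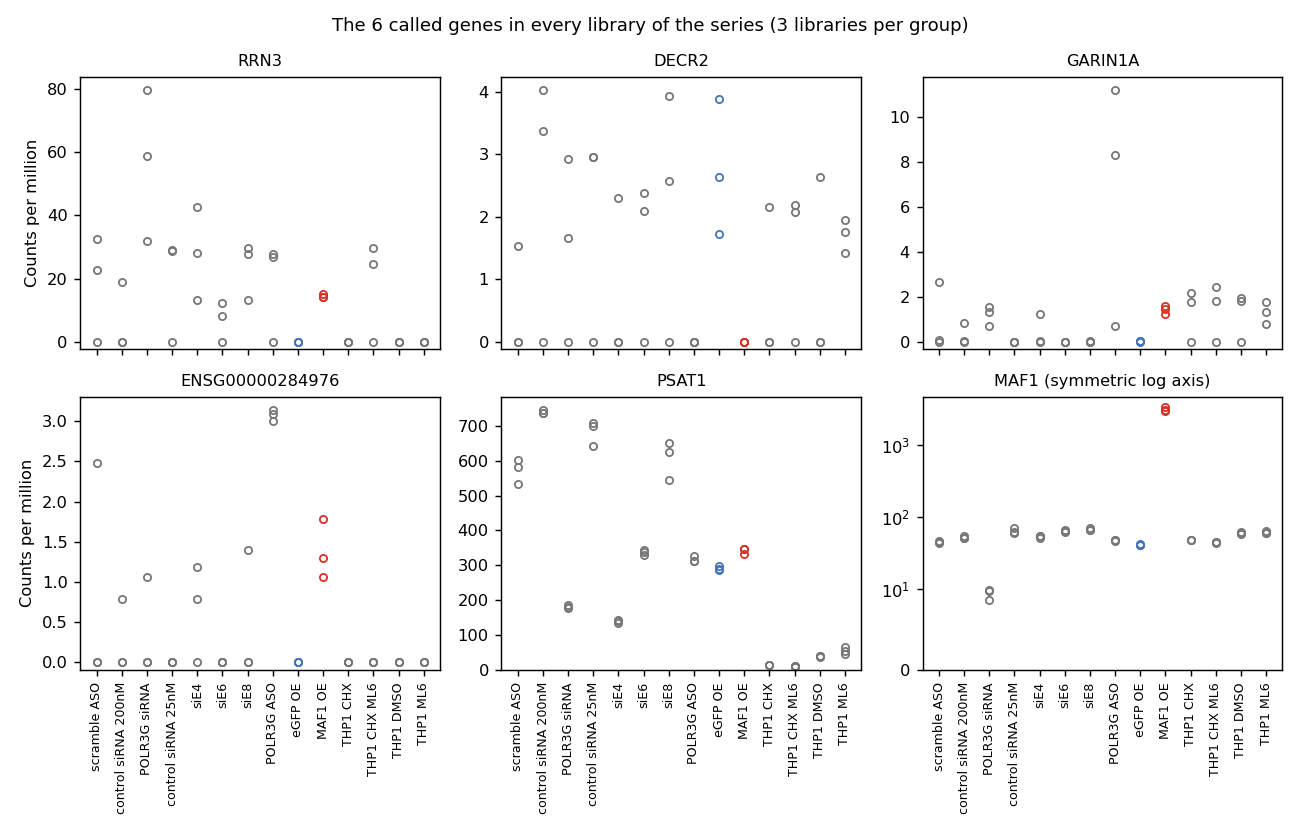
CPM of the 6 called genes in each of the 42 libraries, 3 points per group, with eGFP in blue and MAF1 in red; the axis is linear except for MAF1, which has a symmetric log axis. RRN3 and DECR2 have points at 0 beside points well above it within the same group, whereas PSAT1 and MAF1 replicates lie close together.

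PSAT1 was the called gene with the smallest change and the steadiest level. It encodes phosphoserine aminotransferase, the second enzyme of serine synthesis (chromosome 9, 78297143 to 78330093, plus strand). It was at 286, 288 and 295 CPM with eGFP and at 349, 347 and 333 CPM with MAF1, so every MAF1 library lay above every eGFP library. The difference was an 18.4% rise, with a 95% interval of 1.13 to 1.24-fold (log2 0.24, SE 0.0282, edgeR adjusted p = 0.0407, higher in 3 of 3 libraries). The size held between 0.23 and 0.27 on the log2 scale with each library left out, but the call did not. The edgeR adjusted p was 0.235, 0.375 and 0.141 without eGFP replicates 1, 2 and 3, 0.111 and 0.235 without MAF1 replicates 1 and 2, and 0.0348 without MAF1 replicate 3. It was 0.105 over all 30 HEK293T libraries, 0.128 with the length offset and 1.64e-10 by DESeq2, the ends of the whole range over alternatives being that last value and 0.375.

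PSAT1 is a target of ATF4, the transcription factor of the integrated stress response, which drives genes of amino acid synthesis, transport and tRNA charging when amino acids are short or translation initiation is restrained. Of 30 tested ATF4 targets, 1 was called, PSAT1, and 29 were not. Their median log2 fold change was 0.035, against 0.003 over all genes. Libraries did not overlap, with MAF1 higher, for 9 of the 30, where 7.82% of all genes did so, and 1 was lower without overlap, where 8.18% did. The list was drawn up with earlier results of these data known and is not independent evidence of its direction.

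The serine synthesis enzymes were all above 0. PHGDH, the first enzyme of serine synthesis, was at 311, 312 and 311 CPM with eGFP and at 353, 354 and 337 CPM with MAF1 (log2 0.16, SE 0.0272, edgeR adjusted p = 0.234). PSPH, the last enzyme of that branch, was at 36.1, 37.3 and 35.5 against 39.9, 38.1 and 39.4 CPM (log2 0.11, SE 0.0365). Both were above eGFP in all MAF1 libraries. Neither was called by edgeR, and DESeq2 called PHGDH (adjusted p = 0.000348). SHMT2, which takes serine into mitochondrial folate metabolism, showed no such shift, with log2 0.007 and a 95% interval of -0.07 to 0.08. MTHFD2, the next step there, was at 0.12 (SE 0.0508) with overlapping libraries, and ALDH1L2 was at 0.12 (SE 0.0417) without overlap.

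Larger values were found for single members with other roles. SLC7A11, the cystine importer, was at 49.2, 49.2 and 53.8 CPM with eGFP and at 62.3, 69.4 and 79.2 CPM with MAF1, with no overlap (log2 0.47, SE 0.0804, edgeR adjusted p = 0.243). It was called by DESeq2 (adjusted p = 3.37e-06) and by edgeR over all 30 HEK293T libraries (adjusted p = 0.00765). Other amino acid transporters of the list were nearer 0, with overlapping libraries: SLC3A2, the partner chain of SLC7A11, was at -0.13 (SE 0.0817), SLC7A1 at 0.04 (SE 0.0403) and SLC1A5 at 0.03 (SE 0.0251). ASNS, asparagine synthetase, was at 184, 174 and 197 against 229, 221 and 209 CPM (log2 0.25, SE 0.0502, edgeR adjusted p = 0.37). STC2, a secreted glycoprotein, was at 0.20 (SE 0.0398), and CHAC1, which degrades glutathione, at 0.40 (SE 0.111) from a level of only 3.31 CPM. DESeq2 called 5 of the list, PSAT1, SLC7A11, PHGDH, ASNS and STC2, all higher.

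Some regulators of the pathway, named after their values were seen, had values on the other side of 0. ATF4 mRNA was at 27.2, 27.5 and 27.7 CPM with eGFP and at 25.4, 25.6 and 25.5 CPM with MAF1, lower without overlap but not called (log2 -0.11, SE 0.0366, edgeR adjusted p = 0.458). ATF4 is regulated mainly at translation, which these libraries do not measure. PPP1R15A, the phosphatase subunit that ends the response, was at log2 -0.37 (SE 0.107), ATF3 at -0.29 (SE 0.143), DDIT3 at -0.05 (SE 0.124) and TRIB3 at -0.08 (SE 0.0788), each with overlapping libraries. The 30 members thus ran from -0.37 to 0.58, the top being the chromatin-associated stress protein NUPR1 at 2.63 CPM with MAF1.

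**Figure D4:**
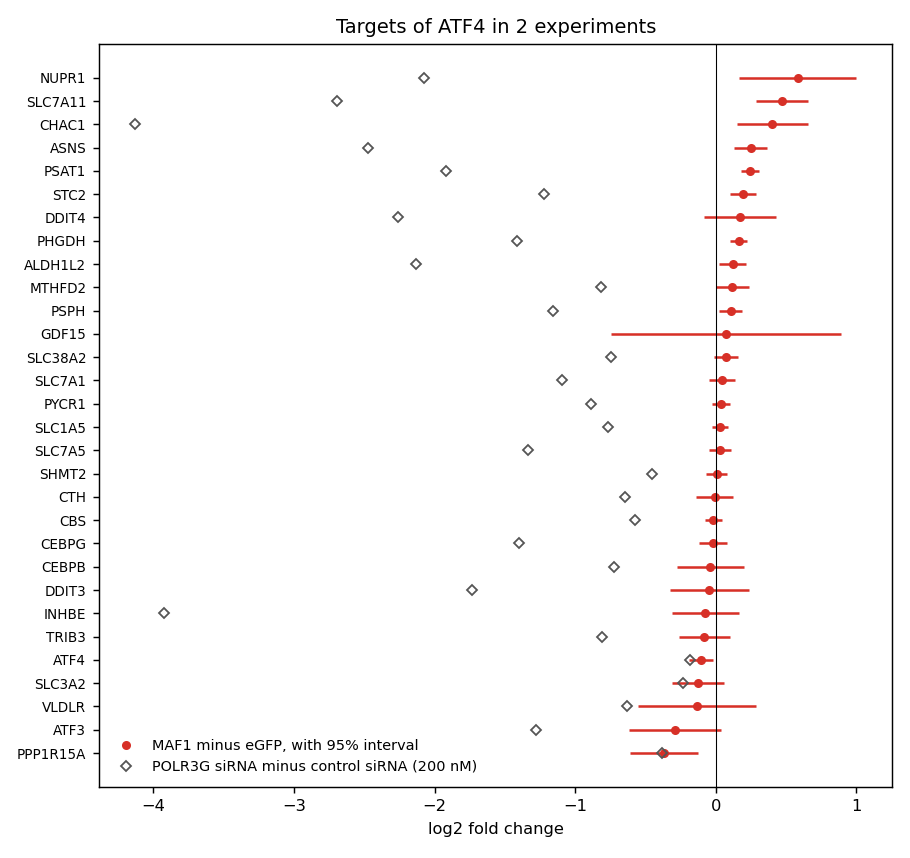
log2 fold changes of the 30 tested ATF4 targets with MAF1 (red points, bars are 95% intervals) and, for 29 of them, after POLR3G siRNA (open diamonds). The MAF1 values lie between -0.37 and 0.58, and the POLR3G siRNA values are all below 0, down to -4.13 for CHAC1.

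ATF4 acts with C/EBP partners at a composite DNA element, and windows that hold it are shown to set sequence beside response. The motif searched was TGATGNAA on either strand (TTNCATCA on the other), over RefSeq promoters from 250 bases before to 50 after a start (GRCh38.p14). It was found in 362 of 17063 promoters of tested genes (2.12%). Among the 23 tested ATF4 targets matched in that table, 7 (30.4%) had it in at least 1 of their promoters, against 341 of all 11621 tested genes that were matched (2.93%). The following 5 lie before a start, written along the gene with the motif in capitals:
ASNS: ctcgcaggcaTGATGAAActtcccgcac
CHAC1: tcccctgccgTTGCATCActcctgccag
ATF3: aaggtcaggaTGATGGAAggctgtcata
CEBPG: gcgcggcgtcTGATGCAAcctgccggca
SLC1A5: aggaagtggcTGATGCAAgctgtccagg
They lie at chr7:97872459-97872486 (minus strand), chr15:40953252-40953279 (plus), chr1:212565206-212565233 (plus), chr19:33374061-33374088 (plus) and chr19:46784894-46784921 (minus). The genes with the motif were not alike in response to MAF1: ASNS and CHAC1 stood at 0.25 and 0.40 without overlap, whereas ATF3 was at -0.29, CEBPG, a C/EBP partner of ATF4, at -0.02 and SLC1A5, a glutamine carrier, at 0.03. PSAT1, PHGDH and STC2 had no match in their single windows, which says only that these letters are not there.

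Genes of the Pol III machinery differed little between the groups, and most intervals were narrow, a word used here for a 95% interval that stays within 0.32 of 0 on the log2 scale. None of 18 tested subunits was called by edgeR or DESeq2, and their median was -0.037. An unadjusted p under 0.05 was found for 2, 1 in each direction, and for 9.61% of all genes. The interval was narrow for 17 of the 18 subunits, all but POLR3G. POLR3G, the paralog of the RPC7 subunit found in stem and tumour cells (chromosome 5, 90471748 to 90514553), was at 27.0, 33.2 and 34.8 CPM with eGFP and at 29.4, 28.4 and 24.8 CPM with MAF1. The groups overlap, and the 95% interval ran from 0.747 to 1.01-fold (log2 -0.20, SE 0.0968, edgeR adjusted p = 0.548). POLR3GL, the RPC7 paralog of most differentiated tissues (chromosome 1, 145964702 to 145978848), was at 30.1, 30.8 and 28.6 against 28.7, 30.2 and 28.6 CPM, with an interval of 0.912 to 1.05-fold.

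POLR2K, a subunit shared by the nuclear polymerases, was at 51.0, 50.8 and 50.6 CPM with eGFP and 54.7, 56.6 and 52.6 CPM with MAF1 (log2 0.11, SE 0.0351, edgeR adjusted p = 0.458). Its libraries were separated by group. Initiation factors gave 0 calls among 15 by edgeR and by DESeq2, with 1 at an unadjusted p under 0.05 (GTF3C4, a TFIIIC subunit, log2 -0.08, SE 0.0262) and a median of -0.016. BRF1, the TFIIIB subunit that MAF1 binds, was at -0.02 (SE 0.0421), and TBP at 0.003 (SE 0.0528).

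Regulators upstream of MAF1 (mTORC1, phosphatase and casein kinase 2 genes) gave 0 calls among 26 by both tools, and all 26 intervals were narrow. An unadjusted p under 0.05 was found for 3 of them and for 9.61% of all genes. PPP4C, a phosphatase catalytic subunit, was at -0.08 (SE 0.0262) and CSNK2B, the casein kinase 2 regulatory subunit, at -0.16 (SE 0.0555). Of 7 genes that earlier work ties to MAF1 level, none was called by either tool and 1 had an unadjusted p under 0.05. That was FASN, fatty acid synthase, at 424, 412 and 423 CPM with eGFP and 378, 381 and 404 CPM with MAF1 (log2 -0.11, SE 0.0319, edgeR adjusted p = 0.409). EGR1 was at -0.37 with an interval of -0.84 to 0.09, and the intervals of TBP, ELK1 and CPT1A were narrow.

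Genes that use or prepare tRNAs had medians near 0. Cytosolic tRNA synthetases had 0 of 23 called by edgeR or DESeq2, 3 in each direction at an unadjusted p under 0.05, and a median of -0.006. GARS1 (glycyl-tRNA synthetase) was at 254, 246 and 257 against 288, 271 and 267 CPM (log2 0.13, SE 0.0343), and FARSA (a phenylalanyl-tRNA synthetase subunit) at 99.4, 104 and 100 against 93.7, 94.1 and 94.2 CPM (log2 -0.11, SE 0.0273). Each was separated by group, in opposite directions, with an edgeR adjusted p of 0.409 and 0.404. tRNA processing factors had 0 of 41 called by both tools, 2 higher and 6 lower at an unadjusted p under 0.05, where 4.64% and 4.97% of all genes were, and a median of -0.02. Without overlap 0 of them were higher and 5 (12.2%) lower, against 7.82% and 8.18% of all genes. Their smallest p values were those of POP7, a subunit of RNase P (log2 -0.10, SE 0.0363, edgeR adjusted p = 0.47), and TSEN15, a subunit of the tRNA splicing endonuclease (log2 0.10, SE 0.0378, edgeR adjusted p = 0.485).

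The ribosome assembly group lay lower with MAF1 by small amounts. Of 46 tested genes of ribosome biogenesis and Pol I transcription, 37 were below 0, and 17 were lower without overlap of libraries, where 8.18% of all genes were. The median was -0.055, and RRN3 was the 1 member called, in the other direction. PES1, an assembly factor of the large subunit, was at 156, 164 and 160 CPM with eGFP and 146, 143 and 147 CPM with MAF1 (log2 -0.14, SE 0.0288, edgeR adjusted p = 0.37). TSR1, an assembly factor of the small subunit, was at 228, 230 and 227 against 214, 211 and 211 CPM (log2 -0.11, SE 0.023), and the helicase DDX10 at 116, 118 and 113 against 108, 103 and 103 CPM (log2 -0.15, SE 0.0318). All 3 are separated by group, and 17 members were lower at an unadjusted p under 0.05, where 4.97% of all genes were. The abundant nucleolar proteins NPM1 (0.04) and NCL (0.02) were on the other side of 0.

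Ribosomal protein genes and nuclear genes of oxidative phosphorylation had the opposite sign. Of all genes tested, 51.6% were above 0, 7.82% were higher without overlap and 4.64% were higher at an unadjusted p under 0.05. Of 76 ribosomal protein genes, 75 were above 0 and 25 (32.9%) were higher without overlap, with a median of 0.065, 0 called by edgeR or DESeq2 and 13 at an unadjusted p under 0.05. RPL34 was at 204, 203 and 206 CPM with eGFP and at 220, 236 and 209 CPM with MAF1 (log2 0.12, SE 0.0413, edgeR adjusted p = 0.458). Of 52 oxidative phosphorylation genes, 49 were above 0 and 14 (26.9%) were higher without overlap, with a median of 0.06, 0 called by either tool and 7 at an unadjusted p under 0.05. COX7B, a subunit of cytochrome c oxidase, was at 114, 121 and 117 against 124, 142 and 123 CPM (log2 0.14, SE 0.0529).

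Values of 1 library and of short transcripts moved with both groups. The median deviation of the ribosomal protein genes from their 6-library mean was 0.109 (log2) in MAF1 replicate 2, 0.02 in replicate 1 and -0.025 in replicate 3, against -0.039 to -0.024 in the eGFP libraries. Oxidative phosphorylation genes gave 0.089, 0.019 and -0.025. The 418 genes under 1000 bases and of at least 5 CPM that are in no list had a median log2 fold change of 0.043. Of them, 71.8% were above 0, 15.3% were higher without overlap and 2.39% were lower without overlap. In MAF1 replicate 2 their deviation was 0.082. Ribosomal protein genes had a median length of 805 bases, and genes of 1000 bases and over a median log2 fold change of -0.003. Without MAF1 replicate 2 the medians of the ribosomal protein and oxidative phosphorylation groups were 0.032 and 0.03. The part of transcript length or of that library in these values was not tested. Ribosome biogenesis genes, with a median length of 2337 bases, were lower in all 3 MAF1 libraries, at -0.036, -0.037 and -0.019 against 0.021 to 0.044.

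**Figure D5:**
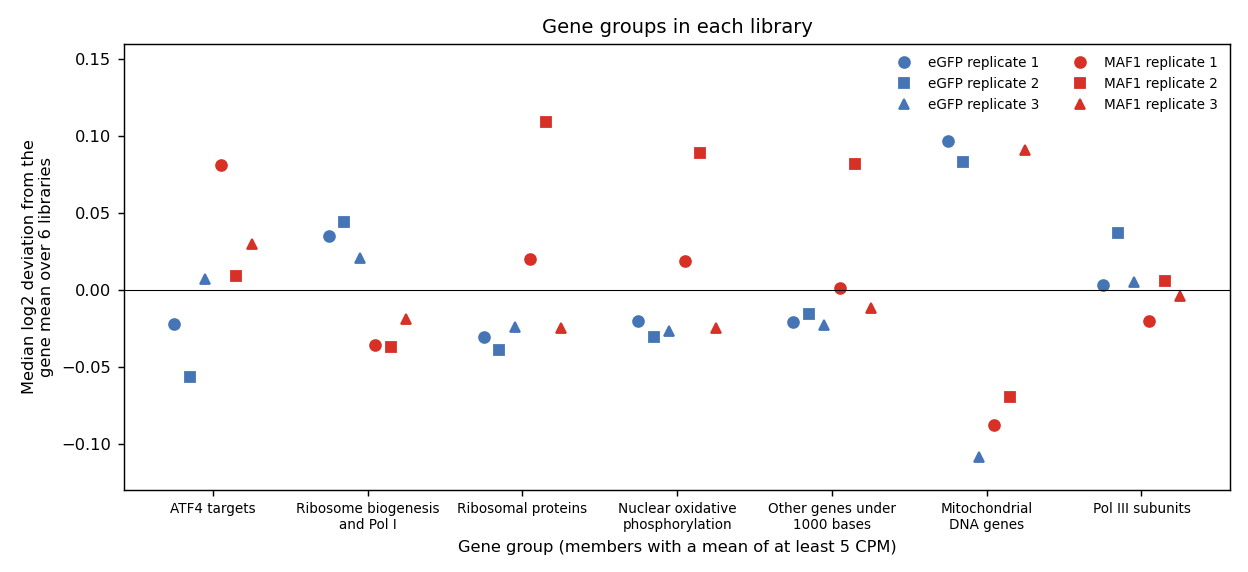
For 7 gene groups, the median log2 deviation of the members from their own mean over the 6 libraries, 1 point per library with a marker shape for each replicate number, blue for eGFP and red for MAF1. Ribosome biogenesis separates the groups in all libraries, whereas ribosomal proteins, oxidative phosphorylation and other short genes are highest in MAF1 replicate 2, at 0.109, 0.089 and 0.082, with replicate 1 at 0.02, 0.019 and 0.001.

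Other lists held no called gene by edgeR unless named, and they are given by their medians beside 0.003 for all genes. Translation factors had a median of 0 over 42 genes, 0 called by edgeR and 10 at an unadjusted p under 0.05, 7 of them lower. Of all genes, 4.64% were higher and 4.97% lower at that p. Without overlap 3 translation factors (7.14%) were higher and 7 (16.7%) lower, against 7.82% and 8.18% of all genes. EIF5, a start-codon selection factor, was at 451, 462 and 445 CPM with eGFP and 410, 408 and 389 CPM with MAF1 (log2 -0.17, SE 0.0299, edgeR adjusted p = 0.243, DESeq2 adjusted p = 9.95e-05). EIF4EBP1, the mTORC1 substrate that restrains cap-dependent translation, was at 40.7, 41.5 and 41.4 against 46.6, 47.4 and 47.6 CPM (log2 0.20, SE 0.0306, edgeR adjusted p = 0.202). Their libraries are separated with a narrow spread, 1 in each direction. Mitochondrial DNA genes had a median of -0.052 over 13, with 0 separated by group, 0 called by edgeR or DESeq2 and 0 at an unadjusted p under 0.05. MT-ND2 ran from 3590 to 4130 CPM with eGFP and from 3530 to 4100 CPM with MAF1.

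Several stress lists had medians below 0. Heat shock and chaperone genes had a median of -0.015 over 20, with 0 called by edgeR. At an unadjusted p under 0.05, 3 were lower, where 4.97% of all genes were. Without overlap 0 of them were higher and 5 (25.0%) lower, against 7.82% and 8.18% of all genes. The median deviation of this list was 0.012, 0.019 and 0.009 in the eGFP libraries and 0.007, 0.01 and -0.054 in the MAF1 libraries. DNAJB1, an HSP40 co-chaperone, was at 116, 119 and 114 against 106, 105 and 102 CPM (log2 -0.16, SE 0.029, edgeR adjusted p = 0.258). HSPA8, the constitutive HSP70, was at 1650, 1690 and 1620 CPM against 1530 CPM in each MAF1 library (log2 -0.11, SE 0.0268) and was called by DESeq2 (adjusted p = 0.00645). The unfolded protein response had a median of -0.05 over 24 genes and 3 lower at an unadjusted p under 0.05, among them the chaperones CALR (-0.07, SE 0.0232) and DNAJC3 (-0.09, SE 0.0381). Its median deviation overlapped between the groups, at 0.06, -0.032 and 0.055 with eGFP and -0.012, -0.036 and -0.009 with MAF1. Immediate early genes had a median of -0.106 over 35, with 2 at an unadjusted p under 0.05. Of the 35, 28 were below 0, where 7522 of all 15543 genes were. The median deviation of the 23 members of at least 5 CPM was 0.065, -0.033 and 0.06 in the eGFP libraries. In the MAF1 libraries it was 0.052, -0.042 and -0.049, so the groups overlapped. FOSB, an AP-1 subunit, was at 4.07, 3.51 and 3.89 against 2.83, 2.22 and 2.87 CPM (log2 -0.53, SE 0.131), and the repressor NAB2 at -0.15 (SE 0.0552). NRF2 targets had a median of 0.004 over 20 and 3 at an unadjusted p under 0.05, with MAFF, a small MAF protein, at -0.37 (SE 0.106) and SLC7A11, shared with the ATF4 list, called by DESeq2. No gene of the unfolded protein response or the immediate early list was called by DESeq2.

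Immune lists showed nothing called. For comparison, 9.61% of all genes had an unadjusted p under 0.05. RNA sensing and interferon-induced genes had a median of -0.019 over the 34 tested of 47 measured, 2 at an unadjusted p under 0.05 and 19 with an interval within 1.5-fold. OAS3, an RNA sensor, was at 5.79, 6.17 and 1.01 CPM with eGFP and at 1.71, 1.03 and 2.03 CPM with MAF1, so its value (log2 -1.44) rests on 2 eGFP libraries and was -0.41 with the length offset, and STAT2 was at -0.10 (SE 0.0402). NF-kB and inflammatory genes had a median of -0.032 over 18 and 1 at an unadjusted p under 0.05, NFKB1 at 32.3, 31.0 and 31.8 against 28.8, 26.7 and 29.9 CPM (log2 -0.15, SE 0.0482). TNFAIP2, below 1 CPM in all libraries, was at 0.41 (SE 0.213) and at -0.44 with an offset for transcript length.

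Growth and cell cycle lists were near 0, with p53 targets somewhat above. For p53 targets and CDK inhibitors the median was 0.059 over 27, 9 (33.3%) were higher without overlap, against 7.82% of all genes, and 8 were higher and 2 lower at an unadjusted p under 0.05, against 4.64% and 4.97% of all genes. DDB2, a DNA damage recognition protein, was at 44.8, 44.3 and 44.4 against 50.5, 52.1 and 49.3 CPM (log2 0.19, SE 0.0329, edgeR adjusted p = 0.243). MDM2, the ubiquitin ligase of p53, was at 263, 266 and 271 against 280, 289 and 304 CPM (log2 0.13, SE 0.0333). HEK293T cells carry large T antigen, which binds p53. DNA replication genes had a median of 0.025 over 32 (5 at an unadjusted p under 0.05), led by UNG (0.10, SE 0.0276). G2/M genes had 0.008 over 35 (1 at an unadjusted p under 0.05), with HMGB2 at 0.11 (SE 0.032) and AURKB at 0.07 (SE 0.0337). Replication-dependent histones, which mostly lack a poly(A) tail, had 0.051 over 19 (1 at an unadjusted p under 0.05), with H3C10 at 1.17 against 1.48 CPM.

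Lipid, sugar and lysosome lists were also near 0. For comparison, 9.61% of all genes had an unadjusted p under 0.05. Sterol genes had a median of -0.006 over 23 (1 at an unadjusted p under 0.05), all with narrow intervals, with STARD4 at 0.11 (SE 0.0437). Fatty acid synthesis genes had -0.007 over 17 (2 at an unadjusted p under 0.05), with FADS1 at -0.07 (SE 0.0252). Glycolysis and hypoxia genes had 0.041 over 31 (1 at an unadjusted p under 0.05), with PDK1 at 0.21 (SE 0.0771) and ALDOC at 0.20 (SE 0.0888), both with overlapping libraries. Lysosome and autophagy genes had -0.004 over 33 (3 at an unadjusted p under 0.05), with MCOLN1 at -0.21 (SE 0.0829) and HEXA at 0.10 (SE 0.0387). REST targets of neurons had -0.079 over 20 (1 at an unadjusted p under 0.05), with CELF3 at -0.49 (SE 0.134; -0.11 with the length offset) and UNC13A at -0.28 (SE 0.126). The HEK293T markers had 0.031 over 15 (2 at an unadjusted p under 0.05), with HOXA9 at 0.08 (SE 0.0292) and CDH2 at 0.07 (SE 0.0251), and the 3 tested monocyte markers 0.146, with CD68 at 0.15 (SE 0.134) and LYZ at 0.17 (SE 0.172). DESeq2 called 0 members of the lists in this paragraph and in the 2 before it.

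Outside the lists, several genes that edgeR did not call had small p values and were separated by group. On the higher side, DDR2, a collagen receptor kinase, was at 150, 146 and 157 CPM with eGFP and 173, 178 and 180 CPM with MAF1 (log2 0.23, SE 0.0329, edgeR adjusted p = 0.173). MMS22L, a replication fork repair factor, was at 24.7, 25.2 and 24.3 against 31.0, 30.4 and 34.7 CPM (log2 0.37, SE 0.0552, edgeR adjusted p = 0.202). Both were called by DESeq2. With the length offset MMS22L was at log2 0.06 (edgeR adjusted p = 0.905) and DDR2 at 0.24. On the lower side, the pseudogene SMG1P2 was at log2 -0.41 (SE 0.0617), the growth-associated factor TCF19 at -0.33 (SE 0.056), the proprotein convertase FURIN at -0.21 (SE 0.0337) and the nucleolar deubiquitinase USP36 at -0.18 (SE 0.0312), with edgeR adjusted p values of 0.202, 0.234, 0.215 and 0.243. DESeq2 called SMG1P2, TCF19 and USP36 (DESeq2 adjusted p = 0.00439, 0.00645 and 0.0494) but not FURIN (DESeq2 adjusted p = 0.113). SMG1P2 is a near-identical copy of part of SMG1, and how the authors' quantification divided reads between such copies was not tested.

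The size of the response can be bounded for most genes. The interval was narrow for 68.6% of the genes tested, within 1.5-fold for 82.0% and within 2-fold for 92.2%. The bound depends on level. Above 100 CPM, where PSAT1, PHGDH and ASNS lie, 99.0% of 2352 genes had a narrow interval, and between 10 and 100 CPM, where POLR3G and SLC7A11 lie, 94.7% of 7637 did. Not narrow were the intervals of POLR3G (-0.42 to 0.02), SLC7A11 (0.29 to 0.65) and ASNS (log2 0.25, SE 0.0502). Between 1 and 10 CPM, where CHAC1 and NUPR1 lie, the share was 31.6% of 3506, and below 1 CPM 0.0% of 2048, with 51.7% within 2-fold.

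Large point estimates were few. Among the 11310 genes that averaged 5 CPM or more, 107 (0.946%) were past 0.32 on the log2 scale, 32 past 1.5-fold and 14 past 2-fold in either direction, MAF1 included. Of those 14, 7 had a replicate at 0 and another at 1 CPM or more within a group of the series. Chosen after their values were seen, PPP1R10, a phosphatase 1 regulatory subunit, was at 1.28, 35.5 and 19.7 CPM with eGFP and 0 in each MAF1 library, and the mitochondrial ornithine carrier SLC25A15 at 0.128, 0.516 and 0.346 against 0.471, 8.05 and 20.6 CPM. Neither was called by edgeR (adjusted p = 0.386 for each), and DESeq2 called PPP1R10 (adjusted p = 5.42e-05). SP100, a nuclear body protein, was at 4.13, 2.94 and 3.49 against 7.1, 5.81 and 8.39 CPM (log2 1.01, SE 0.162, edgeR adjusted p = 0.202) and was called by DESeq2 (adjusted p = 0.000171). UHRF1, a DNA methylation maintenance factor, was at 75.1, 145 and 152 against 38.0, 73.0 and 52.3 CPM (log2 -1.19, SE 0.287).

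At the transcript level even less passed the test. Of 59418 transcripts, 2 (0.00337%) were called, MAF1-204 (edgeR adjusted p = 0.0179) and RRN3-201 (edgeR adjusted p = 0.0221), and 2948 (4.96%) had an unadjusted p under 0.05. DESeq2 called 536, of which 228 had 0 reads in at least 1 of the 6 libraries. Without eGFP replicate 2 or any one of the MAF1 replicates edgeR called 0 transcripts, with 2559 to 3584 at an unadjusted p under 0.05. MAF1-204 was then at an adjusted p of 0.0975 without eGFP replicate 2 and of 0.206, 0.285 and 0.242 without MAF1 replicates 1, 2 and 3, and at 0.122 without eGFP replicate 1. The median SE of a transcript was 0.273 on the log2 scale against 0.0577 for a gene, and 55.2% of transcripts had an interval within 2-fold. In 3625 tested transcripts a library at 0 reads stood beside one of at least 1 CPM in the same group.

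The response was compared with that of the POLR3G siRNA (200 nM, 48 h, against control siRNA at 200 nM) as the difference of the log2 fold changes, each against its own control. The experiments share no library and differ in transfection reagent. Of 15951 genes tested, 10373 (65.0%) differed at an edgeR adjusted p under 0.05, 5316 with the MAF1 value higher, and the POLR3G siRNA by itself changed 74.9% of the genes tested with it. MAF1 mRNA itself fell by 2.34 on the log2 scale with the POLR3G siRNA (SE 0.0503, edgeR adjusted p = 1.18e-09), from 50.8 to 53.7 CPM in its controls to 8.7 to 9.91 CPM, and was at -0.02 with the POLR3G ASO (SE 0.0305).

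ATF4 targets differed in 1 direction. Of 30, 26 differed with the MAF1 value higher and 0 with it lower, where 33.3% and 31.7% of all genes did. The POLR3G siRNA lowered 28 of 29 members tested with it, and 5833 of the 15189 genes tested in both experiments. The median of the list was -1.16 with the siRNA, whereas the MAF1 median was 0.035. With the POLR3G ASO the median was -0.403 and PSAT1 was at -0.95. PSAT1 fell by 1.92 with the siRNA, so the difference was 2.16 (SE 0.0315, 95% interval 2.10 to 2.23, edgeR adjusted p = 8.45e-14). The controls started from unlike PSAT1 levels. Their medians were 288 CPM with eGFP, 738 and 701 CPM with control siRNA at 200 and 25 nM, and 582 CPM with the scramble ASO. For SLC7A11 the difference was 3.16 (SE 0.107, edgeR adjusted p = 4.97e-11), for ASNS 2.72 (SE 0.0666, edgeR adjusted p = 3.8e-12) and for CHAC1 4.53 (SE 0.131, edgeR adjusted p = 1.31e-11). Ribosome biogenesis went the other way: 42 of 46 differed with the MAF1 value lower and 0 with it higher, and the siRNA median was 0.696. Pol III subunits had 13 of 18 lower and 4 higher, and POLR3G itself differed by 1.05 (SE 0.199, edgeR adjusted p = 0.000435). The median of these subunits was 0.466 with the siRNA, -0.013 with the POLR3G ASO and -0.037 with MAF1. POLR3G was at log2 -1.25 with the siRNA and -1.49 with the ASO, and POLR3GL at -0.57 and -0.44. The difference of the MAF1 response from that to the ASO was not tested.

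Against siE8, 1 of 3 siRNAs to POLR3GL in the series (25 nM, 48 h, against its own control siRNA), 7568 of 15828 genes differed (47.8%), 3744 with the MAF1 value higher (23.7%) and 24.2% with it lower. The siRNA alone changed 55.6% of the genes tested with it. PSAT1 differed by 0.39 (SE 0.091, 95% interval 0.20 to 0.59, edgeR adjusted p = 0.00309), being at -0.16 with siE8. PHGDH differed by 0.48 (SE 0.0863), ASNS by 0.71 (SE 0.101) and SLC7A11 by 1.15 (SE 0.108), each called in the same test. STC2 was not called, at -0.02 with a 95% interval of -0.18 to 0.14. Of the 30 ATF4 targets, 10 differed with the MAF1 value higher and 6 with it lower, with a median difference of -0.007. The other POLR3GL siRNAs, siE4 and siE6, share the control of siE8, and the difference from them was not tested. On this list the median log2 fold change was -0.724 with siE4, -0.521 with siE6 and 0.01 with siE8, and PSAT1 was at -2.21, -0.93 and -0.16. POLR3GL differed by 3.67 (SE 0.0906, edgeR adjusted p = 5.88e-11), POLR3GL having fallen by 3.71 with the siRNA.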

How the data were processed

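Stranded libraries were made from HEK293T polyA RNA and read from both ends, per the labels' protocols. The tools in the submitters' processing notes are bcl2fastq 2.20, Trim Galore, Salmon and DESeq2, with the build hg38; the sources used here give no other version and no transcript annotation. For each transcript and library the authors deposited an estimated count (fractions of reads occur) and a TPM value, per the file headers. Here 158359 of 194142 transcripts (81.6%) were matched to GENCODE 29, and counts were added up by gene, then rounded; transcripts without a match held 8.69% to 8.8% of reads and entered no test. TPM gave only the ranks of MAF1 and the length offset.

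The 6 libraries were fitted alone with edgeR 4.0.16 (R 4.3.3; filterByExpr, TMM, quasi-likelihood F-test, Benjamini-Hochberg adjustment over all genes or transcripts tested, calls under 0.05). Differences between experiments were interaction terms over the libraries of both. The scripts were tested on simulated data. CPM are at TMM library sizes. Intervals are at 95% and, like the floor of 3 reads, cover no error in assigning reads. Within groups, replicates differed by 5.01 to 9.82 times the sampling noise (chi-square per gene), so none was counted as a copy.

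Named genes are MAF1, POLR3G and POLR3GL, up to 12 called genes per direction with a mean of at least 5 CPM and separated libraries (filled to 5 with the smallest uncalled p), and per list up to 3 called or 2 uncalled members. DECR2, GARIN1A, ENSG00000284976 and further list members were named after their values were seen. The comparison, its members and all lists were chosen with earlier results of these data known. Alternatives were DESeq2 1.42.0, its size factors, other filters and thresholds, the replicate number as a block, all 30 HEK293T libraries, a length offset, removal of switching genes and each library left out. Sequences of genes on chromosome 8, MAF1 among them, are not printed. Some list members are counted in their lists but not reported here by name.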

Additional observations from a re-analysis of the deposited data

How the results depend on the processing

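The 6 gene calls became 30 with DESeq2, 11 with no filter, 3 with a minimum mean of 5 CPM, 3 at an adjusted p under 0.01, 2 to 9 with a library left out and, chosen after seeing the data, 1 (MAF1) without the genes that mix 0 reads and at least 1 CPM within a group, where PSAT1 had an adjusted p of 0.0716. DESeq2 was run on the unfiltered 23753 genes and 114316 transcripts, so tool and filter changed together. The 2 transcript calls became 536 with DESeq2, 6 with no filter, 6 at an adjusted p under 0.1, 0 at 0.01 and 0 to 2 with a library left out. MAF1 was called under every setting run. The median of ribosome biogenesis genes was -0.069 with the length offset and -0.069 to -0.055 with a library left out; TNFAIP2 reversed to -0.442 with that offset. The cause was not tested in any of these. Scalings moved the median of all genes by at most 0.00283. The share of genes with an interval within 1.5-fold, 82.0%, was 81.7% over all 30 HEK293T libraries and 81.5% with the replicate block.

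Same-numbered libraries deviated together little (r = 0.075, 0.005 and 0.038 over genes of at least 5 CPM, not every library being closest to its own number). These values are under the 0.1 set for pairing, so the main fit did not pair the libraries. With 3 libraries per group they cannot settle whether numbers mark shared batches, and the labels do not say. With the replicate block 6 genes were called, 4 of them shared (MAF1, RRN3, GARIN1A and DECR2), and 0 transcripts, with 2314 at an unadjusted p under 0.05; PSAT1 had an adjusted p of 0.174.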
